A study of Homo sapiens with 24 samples.

Results

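Peaks of N1-methyladenosine (m1A) were compared between HEK293T cells treated with hydrogen peroxide (H2O2) and untreated cells (UT). The peak lists of the 2 H2O2 and the 2 UT replicates held 28528 of the 61237 peaks in the series. Peaks of the same transcript that shared at least 1 nt were merged, which gave 23475 regions, against 38299 when all 10 lists of the series were merged. A region was called H2O2-only when both H2O2 lists and neither UT list held it (272 regions), UT-only in the reverse case (669 regions), and common when all 4 lists held it (349 regions). At the gene level a gene was called in a list when any of its transcripts had a peak there, whatever its position, and 7517 genes with a symbol had a peak in at least 1 list.

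HEK293T is a transformed line of human embryonic kidney cells, and both groups were wild type. The H2O2 cells received 50 µM hydrogen peroxide for 30 min, and the UT cells received nothing. Both groups grew in DMEM with serum and antibiotics, and polyadenylated RNA was immunoprecipitated with an antibody against m1A. The 6 other lists came from ALKBH3 knockout cells (KO), a separate preparation of wild-type cells (WT) and serum-starved wild-type cells (Starve), with 2 lists each, and were used only to look up the regions found here.

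m1A is a methylation of adenosine on the edge that forms Watson-Crick pairs. It carries a positive charge, blocks normal pairing and stops reverse transcriptase or makes it misread the base. In messenger RNA the mark is known to gather in the 5′ part of transcripts, and ALKBH3 is known to remove it from RNA. Hydrogen peroxide is a mild oxidant that reaches the nucleus and cytoplasm, oxidises protein thiols and activates stress kinases. A peak is an excess of antibody-bound fragments over a local background, and in bulk RNA less methylation and less transcript cannot be told apart.

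Which lists are UT rests on file naming, because the labels of the UT libraries point to the Starve lists. A single list stood apart. H2O2 replicate 2 held 3903 peaks with a median fold enrichment of 8.27 and a median summit pileup of 178 fragments. H2O2 replicate 1 held 7459 peaks with a median fold of 4.79 and a pileup of 76. UT replicates 1 and 2 held 7871 and 9295 peaks with median folds of 3.90 and 4.16 and pileups of 56 and 44. Fold and pileup are the authors' own values for a peak. Peaks were called list by list, so where folds of different lists stand side by side they describe those lists and not a change in methylation. Of 10 genes known from HEK293 cells, 5 and 4 had a peak in the H2O2 lists and 3 and 5 in the UT lists. Of 29 markers of other cell types, 0 had a peak in the H2O2 lists and 1 in each UT list, the collagen gene COL1A1. KRT8, an epithelial keratin named after its values were seen, had 4 and 4 peaks in the H2O2 lists and 0 in each UT list. It also had 6 peaks in Starve replicate 1, and its many processed copies may share its reads. Others of the 10 genes went both ways. IGF2BP1 had 0 and 0 peaks in the H2O2 lists against 0 and 6 in the UT lists, NEFM 2 and 0 against 2 and 5. KRT18 had 0 and 2 against 0 and 0. ALKBH3 had no peak in any list. The labels do not say whether replicates were separate cultures, so a p-value here reflects the spread among these libraries, which may be technical.

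No list-level difference could reach 0.05, since the smallest exact p with 2 lists against 2 is 0.333. The H2O2 lists averaged 5681 ± 2514 peaks and the UT lists 8583 ± 1007 (SD, n = 2 each), and the groups did not overlap (exact permutation test, two-sided, p = 0.333, Benjamini-Hochberg adjusted p = 0.444 over 8 measures). The median fold averaged 6.53 ± 2.46 in the H2O2 lists and 4.03 ± 0.188 in the UT lists, again without overlap and with the same p. Summits within 300 nt of the transcript start made up 34.6% and 45.0% of the peaks in the H2O2 lists, against 37.6% and 31.5% in the UT lists. These shares overlapped between the groups (exact permutation p = 0.667).

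Most regions belonged to a single list. Of the 23475 regions, 84.7% were held by 1 list, 10.8% by 2, 3.04% by 3 and 1.49% by all 4. H2O2-only regions made up 1.16% of all regions, UT-only regions 2.85% and common regions 1.49%. For comparison, pairs made of 1 H2O2 and 1 UT list, with the other 2 lists empty, held 230 to 553 regions. The H2O2-only count of 272 lies within that range and the UT-only count of 669 above it. These pairs are not matched in length, since the UT lists were the longest and H2O2 replicate 2 the shortest. With the same number of peaks per list by fold, 166 regions were H2O2-only and 217 UT-only. H2O2 replicate 2 shared 852 of its 3890 regions with H2O2 replicate 1, which is 21.9% (95% Wilson interval 20.6 to 23.2). With UT replicate 1 it shared 21.3% (20.1 to 22.7), and with UT replicate 2 22.8% (21.5 to 24.1). Intervals here cover counting error only.

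**Figure D1:**
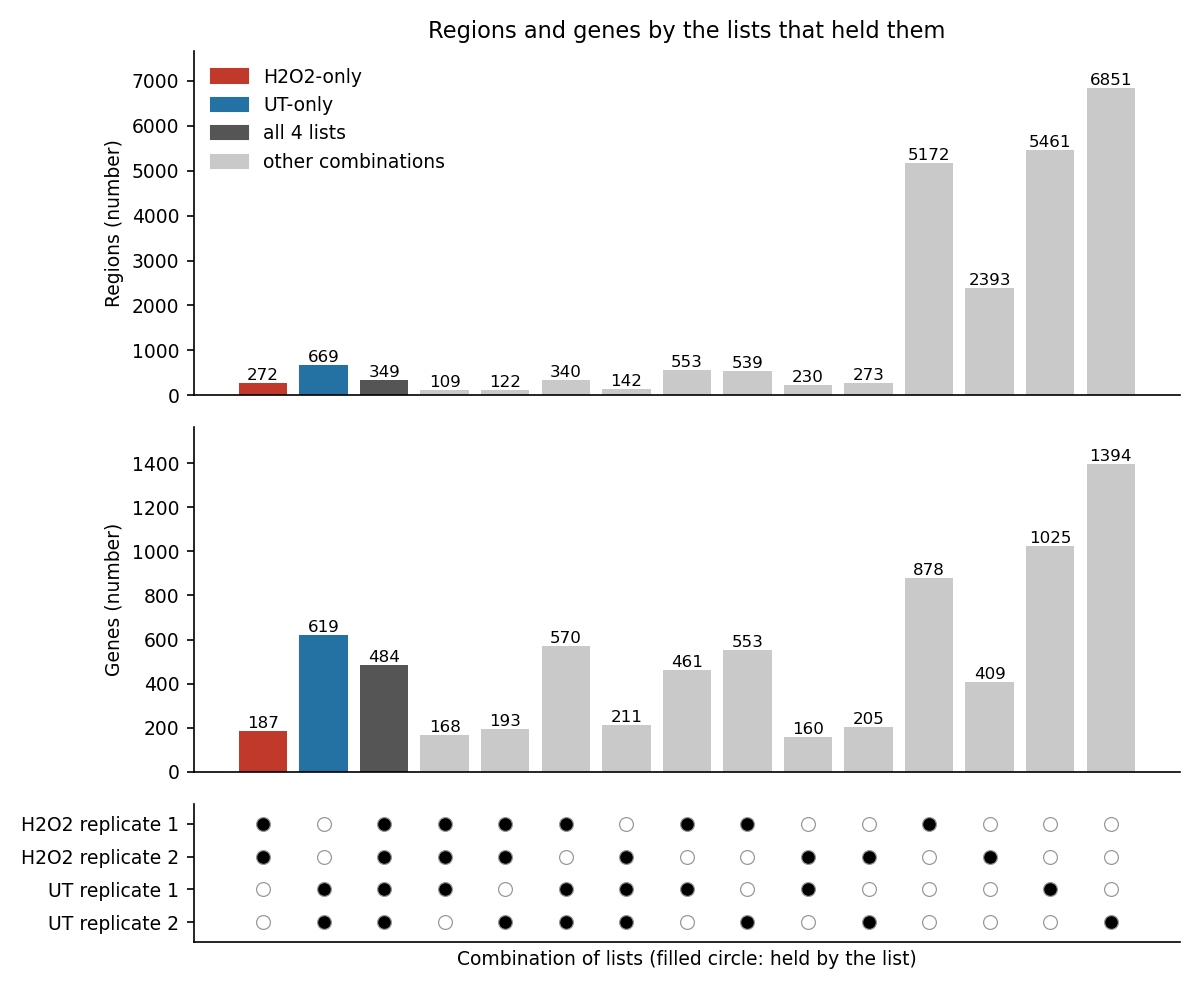
Number of regions (top) and of genes (middle) for each combination of the 4 lists, with filled circles for the lists that held them. The 272 H2O2-only, 669 UT-only and 349 common regions are small beside the 2393 to 6851 regions held by 1 list alone.

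Read from the side of each treatment, 852 regions were held by both H2O2 lists. Of these, 31.9% were in neither UT list, 27.1% in 1 and 41.0% in both. Of the 1500 regions in both UT lists, 44.6% were in neither H2O2 list, 32.1% in 1 and 23.3% in both. The counts depend on asking for 2 lists. With H2O2 replicate 1 or replicate 2 left out, so that a single H2O2 list sufficed, 2684 and 5450 regions were H2O2-only. With UT replicate 1 or 2 left out, 7533 and 6147 were UT-only. Without H2O2 replicate 2 the common regions numbered 689.

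The 20 H2O2-only regions with the highest lower fold lay on genes of many kinds, and 16 of them had the higher fold in H2O2 replicate 2. They are given here by role, as a description. The region of NOP56, which belongs to the core of box C/D particles that guide RNA methylation, had folds of 15.9 and 26.0 in the H2O2 lists over pileups of 172 and 274, and lay at nt 117 to 258 of a noncoding transcript (NR_027700). KMT2B, a histone H3 methyltransferase, had folds of 7.74 and 10.2 at nt 1177 to 1332 (NM_014727). BRMS1, a subunit of SIN3 deacetylase complexes, had folds of 11.6 and 19.2 at nt 842 to 1072 (NM_015399). ZBTB21, a zinc finger protein, had folds of 8.29 and 7.37 at nt 60 to 169 (NM_020727).

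Transport and membrane proteins were also among the 20. IPO13, a receptor for nuclear import, had folds of 16.2 and 14.9 in the H2O2 lists at nt 188 to 354 (NM_014652). ATG9A, the membrane protein that feeds lipid to growing autophagosomes, had 13.8 and 11.7 at nt 2042 to 2205 (NM_024085). SLC29A4, a monoamine transporter, had 6.72 and 10.7 at nt 6 to 173 (NM_001040661). These positions run from the very start of the transcript to deep inside it. GYPC, glycophorin C of the membrane skeleton, had 7.52 and 7.52 with pileups of 119 and 113, the closest pair of the 20. The 3 regions widest apart were on enzymes, but SCLY, an enzyme of selenium recycling, was close at 7.73 and 9.54. COASY, which completes coenzyme A synthesis, had 6.91 and 30.9, CNP, a cyclic nucleotide phosphodiesterase, 6.81 and 26.9, and FAR2, a fatty acyl-CoA reductase, 7.09 and 24.8.

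Among the actin regulators, EZR, which ties actin to the membrane, had folds of 11.5 and 16.2 in the H2O2 lists, and WASF1, a subunit of the WAVE complex, 6.74 and 9.78. Of these 20 regions, 9 had the summit within 300 nt of the start and 2 lay on noncoding transcripts. In 13 of them the background was at the lowest value of the list in both H2O2 lists, so their folds follow the pileup alone. The genes of 5 regions had no peak anywhere in the UT lists: ZNF839, DNM1P41, PGAP1, GYPC and ZBTB21. DNM1P41 is a pseudogene of a family with close copies, so its reads may belong elsewhere.

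**Figure D2:**
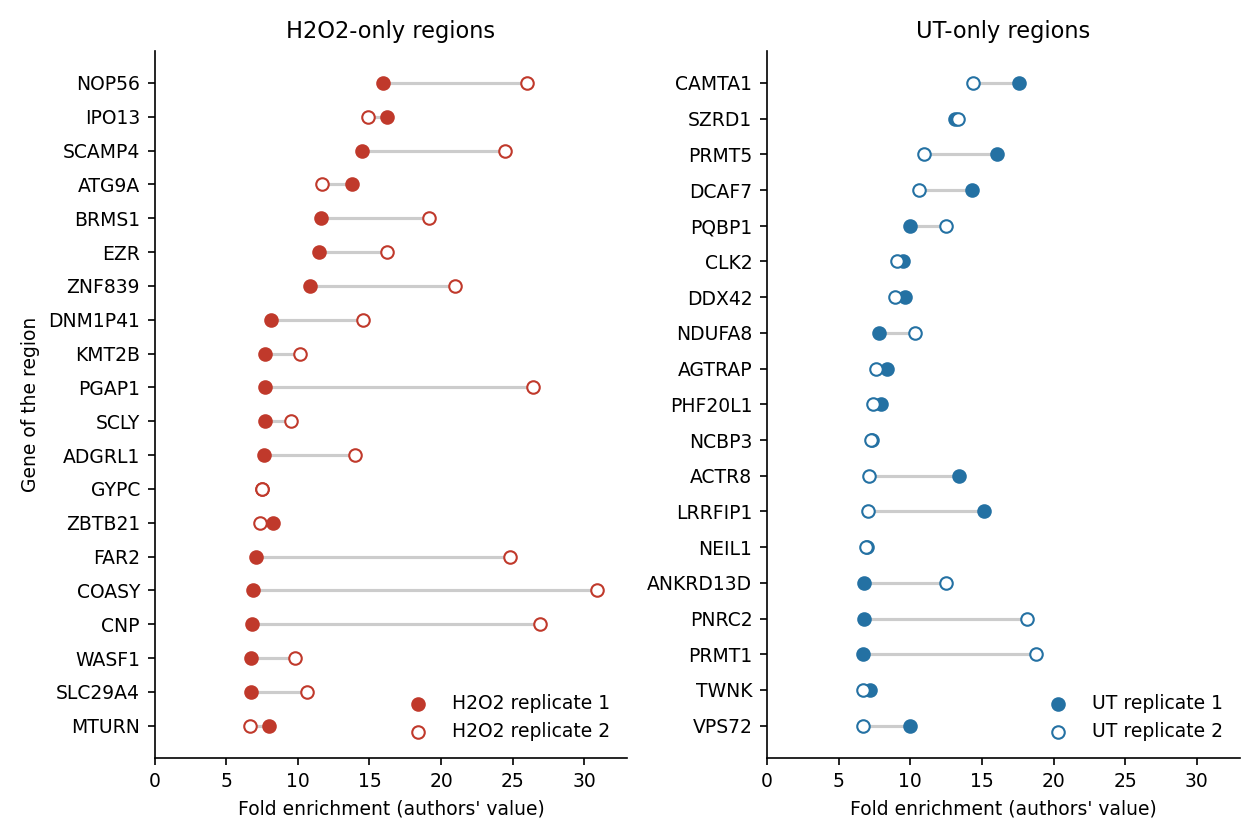
Fold enrichment, the authors' value, in replicate 1 (filled) and replicate 2 (open) for the 20 H2O2-only (left) and the 20 UT-only (right) regions with the highest lower fold, 1 per gene, with 1 UT-only region not shown. In 16 of the 20 H2O2-only regions the fold of replicate 2 is the higher, against 6 of the 20 UT-only regions.

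Over all 272 H2O2-only regions, 72.4% had the higher fold in H2O2 replicate 2 and 54.8% had folds within 2 times of each other. Over the 669 UT-only regions 52.0% had the higher fold in UT replicate 2 and 75.6% were within 2 times. The median fold of the H2O2-only peaks was 3.77 in H2O2 replicate 1 and 6.05 in H2O2 replicate 2, below the medians of all peaks of those lists, 4.79 and 8.27. For the UT-only peaks it was 4.02 and 4.28 in the UT lists, against 3.90 and 4.16 over all peaks. The H2O2-only peaks thus lay below the median of both their lists, and the UT-only peaks slightly above it.

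UT-only regions with the highest lower fold lay mostly near the transcript start, 15 of 20 with the summit within 300 nt. Arginine methyltransferases and chromatin proteins were among them. PRMT5 had folds of 16.0 and 10.9 in the UT lists over pileups of 176 and 91 (NM_006109, nt 249 to 376). PRMT1, the main enzyme of asymmetric arginine dimethylation, had 6.71 and 18.8 (NM_198318, nt 91 to 232), and its region was also called in all 6 other lists. ACTR8, a subunit of the INO80 remodeller, had 13.4 and 7.14, and VPS72, a chaperone for the histone variant H2A.Z, 9.96 and 6.66.

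Genes of RNA-binding proteins were also among the 20. PQBP1, a splicing factor, had folds of 9.97 and 12.5 in the UT lists, the splicing kinase CLK2 9.52 and 9.04, and the helicase DDX42 9.61 and 8.92. NCBP3, a cap-binding protein, had 7.35 and 7.26, and PNRC2, a cofactor of mRNA decay, 6.74 and 18.2. Mitochondrial genes included NDUFA8, a subunit of complex I (7.80 and 10.4), and TWNK, the helicase of mitochondrial DNA (7.16 and 6.66). NEIL1, a glycosylase that removes oxidised bases from DNA, had 6.98 and 6.90 at nt 525 to 629 of a noncoding transcript (NR_046311), and the gene also had a peak in 1 H2O2 list. The genes of 13 of the 20 regions had no peak in either H2O2 list. In 15 of the 20 the background was at the lowest value of the list in both UT lists, so those folds follow the pileup alone.

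Common regions carried some of the highest folds. MAPK3, the ERK kinase of the growth factor cascade, had folds of 34.7 and 41.2 in the H2O2 lists and 21.8 and 19.0 in the UT lists (NM_001109891, nt 54 to 278). The SR splicing proteins SRSF1 and SRSF6 had 26.4 and 19.9, and 13.1 and 59.4, in the H2O2 lists. In the UT lists SRSF1 had 15.5 and 11.3 and SRSF6 9.08 and 9.03. PDE6D, which carries prenylated proteins between membranes, had 12.6 and 13.9 in the H2O2 lists and 21.4 and 9.04 in the UT lists. All 12 common regions with the highest lowest fold had the summit within 300 nt, and each was called in at least 1 of the 6 other lists. SPRNP1 among them is a pseudogene and its reads may be shared.

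Counting genes rather than regions gave 187 H2O2-only genes (2.49% of 7517), 619 UT-only genes (8.23%) and 484 genes in all 4 lists (6.44%). The lists often met in a gene without meeting at 1 place, since 112 of the 187 H2O2-only and 401 of the 619 UT-only genes lacked a region held by both lists of their group. IQSEC1, an exchange factor for ARF GTPases, led the H2O2-only genes with folds of 14.9 and 12.9 in the H2O2 lists, and KIF1B, a kinesin motor, followed with 11.1 and 13.3, each at different positions in the 2 lists. PRMT7, an arginine methyltransferase, had 8.56 and 27.2, MAN1A1, a Golgi mannosidase, 8.84 and 15.6, and TLE3, a corepressor, 7.32 and 29.3. Of these, PRMT7 and TLE3 had no region held by both H2O2 lists. Of the 20 H2O2-only genes with the highest lower fold, 6 had a region held by both H2O2 lists.

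For UT-only genes that number was 14 of 20. Beside the genes already named, ULK2, an autophagy kinase, had folds of 9.79 and 7.97 in the UT lists, and PLCG1, a phospholipase of growth factor signalling, 9.07 and 7.50. POLE, the catalytic subunit of a replicative DNA polymerase, had 13.8 and 7.14, and CHD8, a chromatin remodeller, 7.16 and 7.50. These are the highest folds of the gene in each list, wherever the peak lay. In the region of POLE that both UT lists held, the folds were 2.28 and 2.42. ULK2 and CHD8 had no region held by both UT lists. ULK2 was called in none of the 6 other lists. The gene counts changed with the lists used. Without H2O2 replicate 1 or 2, 596 and 1065 genes were H2O2-only, and without UT replicate 1 or 2, 355 and 380 were. UT-only genes numbered 2013 and 1644 without a UT list and 1189 without H2O2 replicate 1, and 1054 genes were in all lists without H2O2 replicate 2.

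Gene lists were read against the share of all genes with a peak that had such a region, 2.33% for H2O2-only, 5.49% for UT-only and 2.65% for common regions. Of 22 lists with 20 or more genes with a peak, 12 lay above the H2O2-only share and 11 above the UT-only share. The counts are small and no test was made of them.

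**Figure D3:**
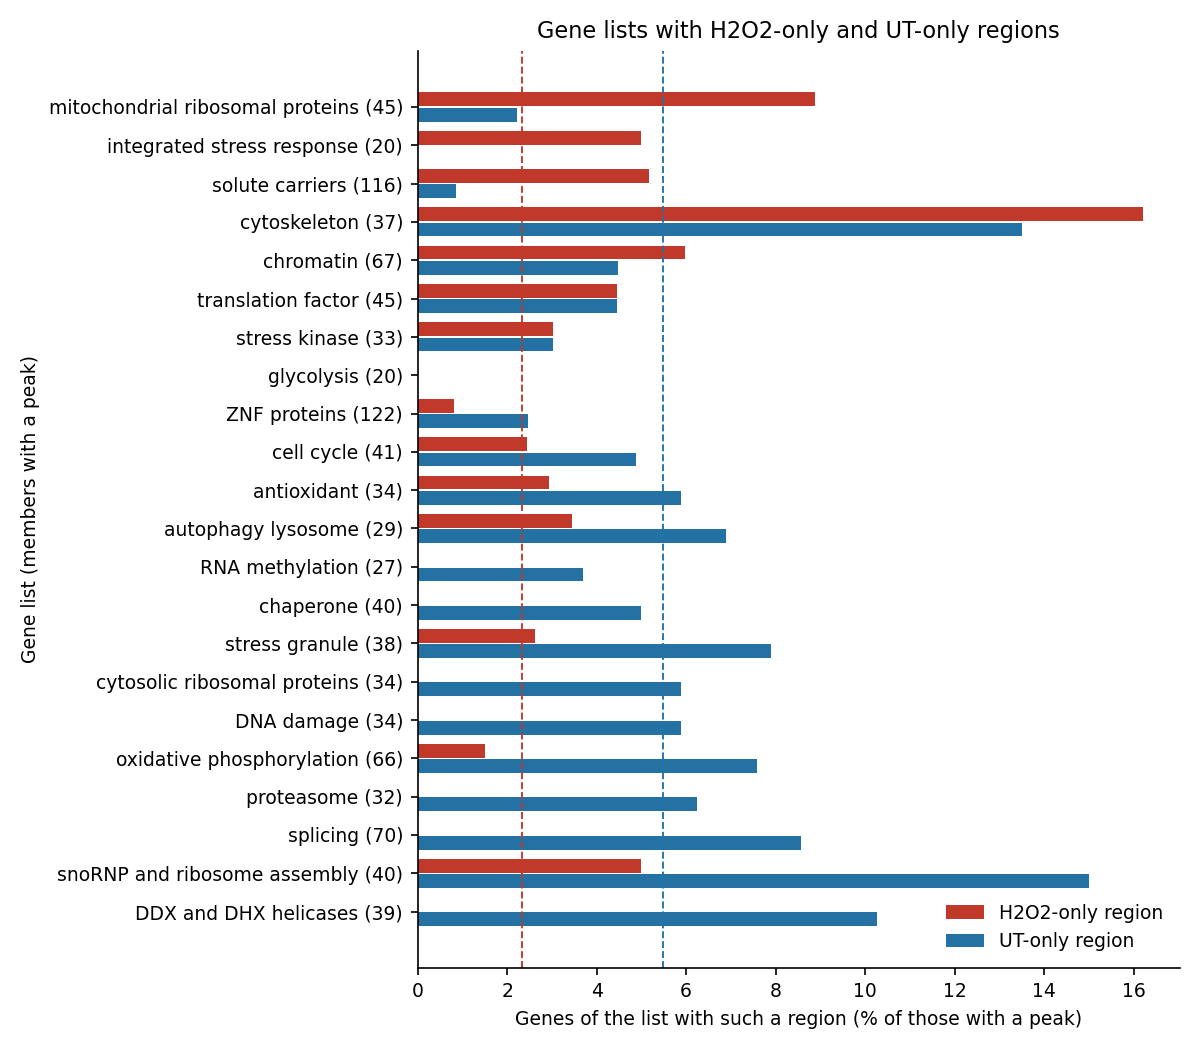
Share of the genes with a peak, in each of 22 gene lists, that had an H2O2-only or a UT-only region. Dashed lines mark the shares over all genes, 2.33% for H2O2-only and 5.49% for UT-only regions.

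Cytoskeleton genes had the highest share of H2O2-only regions, 6 of 37 (16.2%), but also 5 UT-only regions (13.5%). Over all genes with a peak these shares were 2.33% and 5.49%. On the H2O2-only side stood EZR, ARHGDIA, an inhibitor of small GTPases (folds of 9.18 and 6.18), ARPC1B, a subunit of the Arp2/3 complex (5.82 and 8.16), and NHERF2, a scaffold that binds ezrin (4.39 and 10.7). The UT-only side held TUBB4B, a beta-tubulin (5.55 and 2.29 in the UT lists), MYH9, a non-muscle myosin (2.99 and 4.52), MYH10 (3.17 and 2.46) and ARPC2, another Arp2/3 subunit (2.34 and 2.71). Close copies of tubulin and myosin genes may share reads. By gene, 8.11% of cytoskeleton genes were H2O2-only and 2.70% UT-only, against 2.49% and 8.23% of all genes with a peak.

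Mitochondrial ribosomal proteins had 4 H2O2-only regions among 45 genes and 1 UT-only region. MRPL10 had folds of 6.25 and 18.7 in the H2O2 lists, MRPL28 4.87 and 19.2, MRPL4 3.10 and 6.94 and MRPS15 2.49 and 4.59. MRPL9 was on the UT-only side, with 6.37 and 3.67 in the UT lists. At the gene level 8.89% of these genes were H2O2-only and 17.8% UT-only, against 2.49% and 8.23% of all genes with a peak. Solute carriers had 6 H2O2-only regions and 1 UT-only region among 116 genes, led by SLC29A4, the riboflavin transporter SLC52A2 (5.06 and 5.29 in the H2O2 lists, on 1 transcript, with a common region on another) and the mitochondrial carrier SLC25A11 (5.10 and 3.56). At the gene level 2.59% of them were H2O2-only and 6.03% UT-only, read against the same 2.49% and 8.23%.

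Among RNA-related genes, UT-only regions lay on 8.57% of splicing genes, 10.3% of helicases and 15% of nucleolar and assembly factors with a peak. The share was 3.70% for RNA methylation enzymes and 5.49% over all genes with a peak. Splicing genes had 0 H2O2-only and 6 UT-only regions among 70 genes, with CLK2 and PQBP1 at the top, and 9 common regions. By gene the order was the other way, with 5.71% of them H2O2-only and 4.29% UT-only. Over all genes with a peak these shares were 2.49% and 8.23%. By gene, 0% of DDX and DHX helicases were H2O2-only and 10.3% UT-only. They had 0 H2O2-only and 4 UT-only regions among 39 genes. These were on DDX42, DHX40 (folds of 9.79 and 5.24 in the UT lists), DDX5 (3.77 and 5.21) and DHX36 (2.99 and 7.02). Of factors of small nucleolar particles and ribosome assembly, 5% were H2O2-only and 15% UT-only by gene. They had 2 H2O2-only and 6 UT-only regions among 40 genes. NOP56 and UTP4 (4.70 and 17.1) had the H2O2-only regions. NOC2L (4.65 and 5.20), NOP14 (4.62 and 6.43), RRP1 (3.90 and 5.47) and GNL3 (3.39 and 11.7) led the UT-only side. Subunits of the respiratory chain had 1 H2O2-only region, on NDUFA7 (4.86 and 6.55), and 5 UT-only regions among 66 genes, including COX7A2 (6.26 and 17.8) and NDUFS6 (5.95 and 5.52).

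Antioxidant genes had shares near those of all genes, 2.94% with an H2O2-only and 5.88% with a UT-only region. Of 34 antioxidant genes with a peak, TKT, an enzyme of the pentose phosphate pathway, had an H2O2-only region, with folds of 5.11 and 5.17 in the H2O2 lists. GPX4, which reduces lipid peroxides (5.01 and 2.87 in the UT lists), and GLRX2, a mitochondrial glutaredoxin (2.90 and 6.43), had UT-only regions. At the gene level GLRX3 was H2O2-only (5.65 and 14.6), and PRDX3 (5.17 and 4.16) and PRDX6 (4.89 and 4.63), both peroxiredoxins, were UT-only. TXN and PRDX5 had common regions. TXN, thioredoxin, had 4.09 and 3.82 in the H2O2 lists and 2.67 and 3.29 in the UT lists.

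DNA damage genes had 0 H2O2-only and 2 UT-only regions among 34 genes, on NEIL1 and XRCC6, a subunit of Ku (2.51 and 4.08). The UT-only share of 5.88% was near the 5.49% of all genes. By gene the count was 0 and 5, or 0% and 14.7%, against 2.49% and 8.23% of all genes with a peak. APEX1, LIG3, FEN1 and MSH6 were on the UT-only side. Stress kinases and their early targets had 1 region of each kind among 33 genes. EGR1, an immediate early transcription factor, had folds of 7.29 and 1.42 in the H2O2 lists, over pileups of 413 and 123. It had no peak in either UT list, but its region was also called in WT replicate 2 and Starve replicate 1. MAP2K1, the kinase upstream of ERK, had 3.54 and 4.93 in the UT lists, 135 nt from the nearest H2O2 peak. Chaperones had 0 H2O2-only and 2 UT-only regions among 40 genes. By gene, 10% of chaperones were H2O2-only and 5% UT-only, read against the same 2.49% and 8.23%. The H2O2-only genes were HSPA8 (3.67 and 4.17 in the H2O2 lists), CCT3 (2.63 and 27.3), CCT6A (6.10 and 2.23) and the disulphide isomerase P4HB (3.72 and 3.17), against 2 UT-only genes.

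Among chromatin genes, KMT2B, the Polycomb subunit SUZ12 (6.42 and 19.0) and the remodeller subunits SMARCA4 (4.33 and 14.8) and SMARCC1 (3.33 and 12.3) had H2O2-only regions, 4 of 67, and PRMT5, PRMT1 and SMARCC1 UT-only ones. By gene, 1.49% of the chromatin genes were H2O2-only and 11.9% UT-only, against 2.49% and 8.23% of all genes with a peak. Over all genes with a peak, 2.33% had an H2O2-only and 5.49% a UT-only region. Translation factors had 2 regions of each kind among 45 genes (4.44% each), EIF1 and EIF4G3 against EIF4G1 and EIF5. Autophagy and lysosome genes had 1 H2O2-only region, on ATG9A, and 2 UT-only regions, on LAMTOR1 and GABARAP, among 29 (3.45% and 6.90%). Stress granule proteins had 1, on YBX3, and 3 among 38 (2.63% and 7.89%). Cell cycle genes had 1, on CDT1, and 2, on TK1 and POLE, among 41 (2.44% and 4.88%). Integrated stress response genes had 1, on the kinase EIF2AK4, and 0 among 20 (5% and 0%).

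The remaining lists held no H2O2-only region or 1. Cytosolic ribosomal proteins had 0 and 2 among 34, on RPL17 and RPL10, which have many processed copies. Proteasome subunits had 0 and 2 among 32 and RNA methylation enzymes 0 and 1, on RBM15B, among 27. The UT-only shares of cytosolic ribosomal proteins and proteasome subunits, 5.88% and 6.25%, were near the 5.49% of all genes with a peak. ZNF proteins had 1 and 3 among 122, and glycolytic enzymes 0 and 0 among 20, with 3 common regions.

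A missing call did not always mean a bare transcript. Of the 272 H2O2-only regions, 141 (51.8%) had a UT peak elsewhere on the same transcript, and 12 of these lay within 100 nt of one. Of the 669 UT-only regions, 279 (41.7%) had an H2O2 peak on the transcript, 38 of them within 100 nt. The median gap to the nearest peak of the other group was 681 nt for H2O2-only and 673 nt for UT-only regions. By gene, 75 of 175 genes with an H2O2-only region had no UT peak at all, and 218 of 413 genes with a UT-only region had no H2O2 peak.

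In 5 genes both kinds of region occurred. SMARCC1, a subunit of BAF remodelling complexes, had its H2O2-only region at nt 1336 to 1460 (folds of 3.33 and 12.3) and its UT-only region at nt 74 to 225 (7.62 and 5.22) of the same transcript (NM_003074). IPO13 had the opposite arrangement, with the H2O2-only region near the start and a UT-only region at nt 2953 to 3099 (2.27 and 5.24). NEK1, a cilium-associated kinase, had an H2O2-only region at nt 60 to 179 (4.70 and 3.50) and a UT-only region at nt 836 to 1077 (6.89 and 3.21). CBX1, a heterochromatin protein, and POLL, a repair polymerase, carried both on different transcript models. Transcript models of 1 gene repeat a signal: the 5 H2O2-only regions of JPT1, the most of any gene in the class, are 1 region on 5 transcripts.

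Summits of common regions were the nearest to the transcript start. The median summit lay at nt 229 in H2O2-only regions, nt 302 in UT-only regions and nt 149 in common regions, against nt 1098 in regions of 1 list. The summit was within 300 nt in 60.3% of H2O2-only, 49.9% of UT-only and 78.2% of common regions. It lay at nt 61 to 300 in nearly all of these, since 0 of 272 H2O2-only regions, 1 of 669 UT-only and 1 of 349 common regions had it in the first 60 nt. When only peaks of at least 4-fold were counted, the share was 61.6% of H2O2-only and 59.7% of UT-only regions. When a single list sufficed it was 34.2% and 24.3% of H2O2-only regions, without H2O2 replicate 1 or 2, and 23.9% and 29.2% of UT-only regions, without UT replicate 1 or 2.

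**Figure D4:**
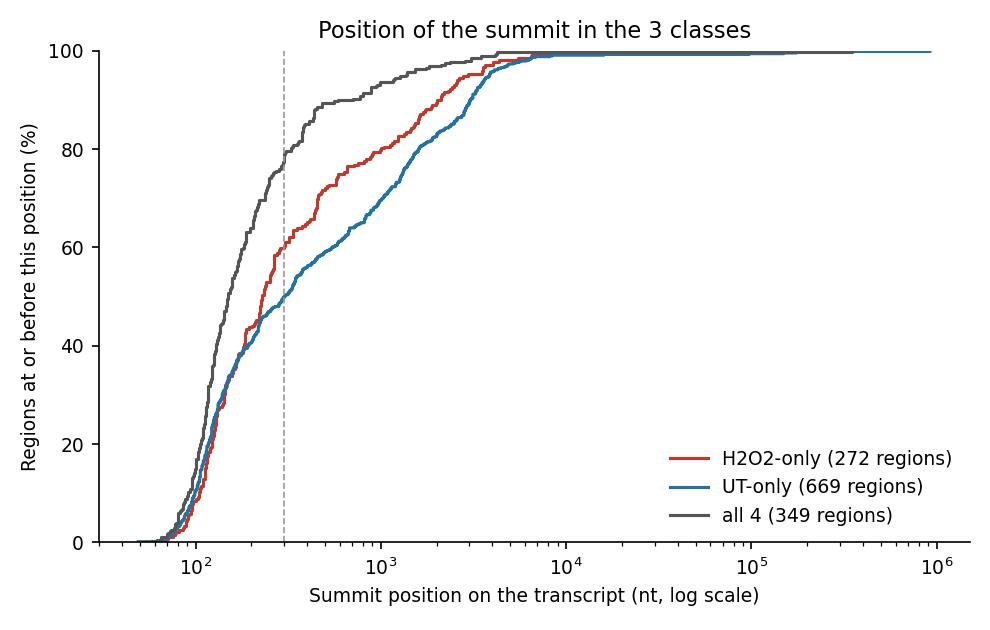
Cumulative share of the 272 H2O2-only, 669 UT-only and 349 common regions by the position of the summit on the transcript (log scale), with a dashed line at 300 nt. At that line the curves stand at 60.3%, 49.9% and 78.2%.

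Genes of all 3 classes began with GC-rich sequence. Over the first 50 nt of the gene in the RefSeq table (GRCh38.p14), the median GC content was 72% for genes with an H2O2-only region within 300 nt (93 of 113 genes matched), 70% for UT-only (195 of 229) and 72% for common regions (134 of 165). Over all genes with a peak it was 70%, so the classes lay at or near the level of every gene with a peak, and above the 60% of all genes in that table.

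The 6 lists that the classes were not built from give an outside view. H2O2-only regions were called more often in the KO lists than UT-only regions were, 39.7% and 38.2% against 16.9% and 18.2%. In the WT lists the shares were 13.6% and 29.4% of H2O2-only against 14.2% and 22.3% of UT-only regions, and in the Starve lists 30.9% and 26.5% against 29.4% and 23.0%. Common regions had the highest share in each of the 6 lists, 55.9% to 87.1%. The H2O2-only share minus the UT-only share was on average 18.1 percentage points larger in the KO lists than in the WT lists, where it was -0.60 and 7.14 points, and the lists did not overlap (exact permutation test over lists, two-sided, p = 0.333, the smallest possible, adjusted p = 0.50 over 3 comparisons).

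**Figure D5:**
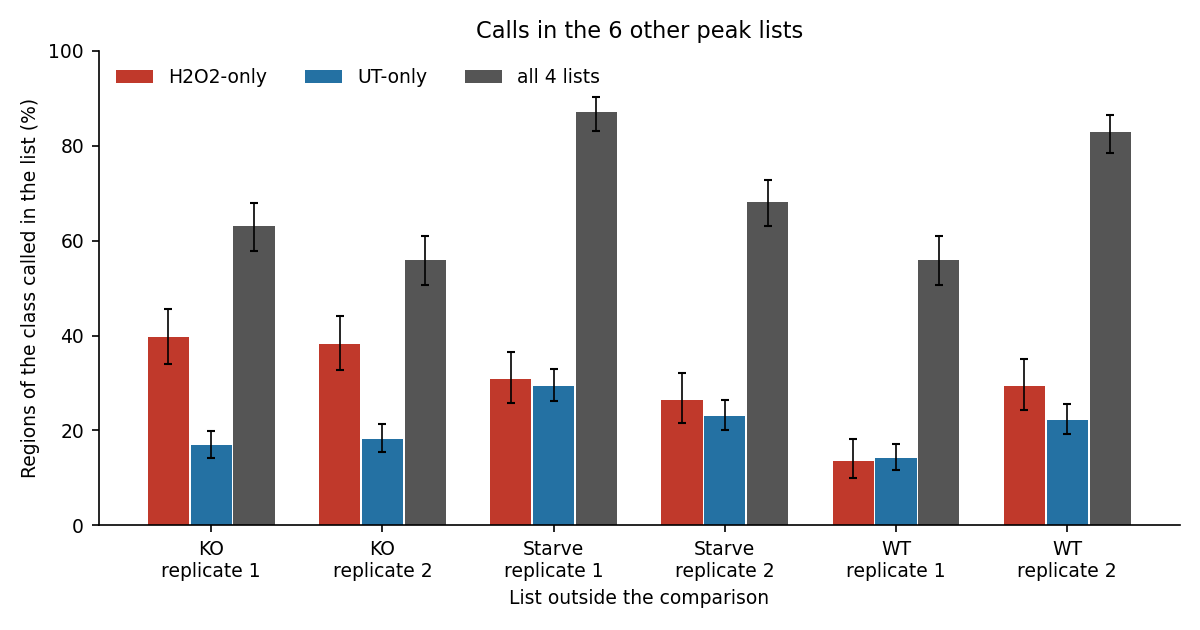
Share of the H2O2-only, UT-only and common regions that were called in each of the 6 other lists, with 95% Wilson intervals for counting error. In the KO lists 39.7% and 38.2% of H2O2-only regions were called, against 16.9% and 18.2% of UT-only regions.

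Both KO lists held 32.4% of H2O2-only regions (95% Wilson interval 27.1 to 38.1) and 11.5% of UT-only regions (9.31 to 14.2). Both WT lists held 9.93% (6.91 to 14.1) and 10.5% (8.37 to 13.0). Counted once per gene the KO shares were 29.1% and 12.4%. H2O2-only regions in both KO lists and no WT list numbered 46, or 16.9%, against 27 UT-only regions, or 4.04%. In the gene lists, ATG9A, ARPC1B, NHERF2, TKT, RHOA, MRPL4 and SLC25A6 carried such an H2O2-only region, and of these RHOA and SLC25A6 had no UT peak on the gene. SLC25A6 has close copies that may share its reads. The regions of NHERF2, TKT, RHOA and MRPL4 were also called in both Starve lists, and that of ARPC1B in Starve replicate 1. The WT lists held 2175 and 3410 peaks, the KO lists 3447 and 3524 and the Starve lists 11362 and 8791. The part of these lengths in the shares was not tested.

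The contrast was smaller when the classes were built anew from fewer peaks. In the first setting only peaks of 4-fold enrichment or more were kept in every list, the KO lists too. Both KO lists then held 14.0% of H2O2-only (9.56 to 19.9) and 9.68% of UT-only regions (6.59 to 14.0), with overlapping intervals. The share of common regions in both KO lists fell as well, from 49.6% to 26.2%. A second setting took the same number of peaks by fold from the 4 H2O2 and UT lists and left the KO lists whole. The shares in both KO lists were then 25.9% (19.8 to 33.1) and 18.9% (14.2 to 24.6). These intervals overlapped too, but overlap does not show that the shares are equal. The local background differed between the classes too: it was above its lowest value in every list that held the region in 75.4% of H2O2-only, 42.6% of UT-only and 81.4% of common regions. Within regions of such background with the summit within 300 nt, both KO lists held 55.6% of 117 H2O2-only and 31.1% of 148 UT-only regions, and both WT lists 16.2% and 23.6%. Among regions with background at its lowest value in at least 1 list that held them, at any position, both KO lists held 5.97% of 67 H2O2-only and 5.73% of 384 UT-only regions. The part of transcript abundance in these shares was not tested.

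Some regions had no call outside their own pair of lists. None of the 6 other lists held 34.6% of H2O2-only regions (29.2 to 40.4), 46.5% of UT-only regions (42.7 to 50.3) and 2.01% of common regions. Among the 20 named regions of each kind these were 8 H2O2-only and 7 UT-only regions. The H2O2-only ones lay on BRMS1, ZNF839, DNM1P41, PGAP1, ADGRL1, ZBTB21, CNP and SLC29A4, and the UT-only ones on SZRD1, DCAF7, ACTR8, LRRFIP1, NEIL1, ANKRD13D and TWNK. At the other end, all 6 lists held 1.84% of H2O2-only, 1.49% of UT-only and 24.9% of common regions, including those of SRSF1 and GTF2IRD1, a transcription factor.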

How the data were processed

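The H2O2 and UT immunoprecipitation libraries, with their inputs, gave 4 deposited peak lists, 1 per replicate. Per the submitters' processing notes, the tools were Trim Galore, HISAT and MACS2 and the build hg19, without versions or order. Per the file headers, the deposited columns are the pileup, a coverage signal at the summit, a −log10 p-value, a −log10 q-value, and the fold enrichment of the peak over local background, all as MACS2 gave them for the authors. The input used as control is not given in these sources. RefSeq transcripts stand in place of chromosomes, so positions are transcript positions, and no genomic position is given. The lists hold no library totals, so depth is unknown and an absent peak means not called. UT lists were taken by file name, and their peak names carry the letters WT.

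Peaks were merged in Python 3.11.15 with pandas 2.3.3. The background was computed from pileup and fold by the MACS2 formula, with 1 added to both. A symbol was found for 13398 of 13621 transcripts (98.4%) in a RefSeq table (GRCh38.p14, names only). The merging was tested on simulated lists. List-level values were compared by exact permutation (scipy 1.17.1). Named genes followed a rule: the 20 regions and 20 genes of each group with the highest lower fold, 12 common regions, up to 4 members per gene list and direction, and genes with both kinds of region. A UT-only region that the rule picked is not reported here. Members, gene lists and the limits of 300 nt and 110000 nt were chosen with earlier results of these data known. Alternatives covered overlap, fold, q-value, list length, isoforms, far positions and each replicate left out.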

Additional observations from a re-analysis of the deposited data

How the results depend on the processing

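Of 129 recomputed values, 82 stayed within their limits and 47 moved. Counts and shares cannot change sign, and the list-level differences, recomputed at 4-fold or more, kept theirs. Counting peaks of 4-fold or more gave 172 H2O2-only, 248 UT-only and 149 common regions, and 274 UT-only and 153 common genes. The summit was then within 300 nt in 59.7% of UT-only regions. Both KO lists held 14.0% of H2O2-only and 26.2% of common regions, both WT lists 6.40% and 47.0%, and both Starve lists 54.4% of common regions. Equal lengths of the 4 compared lists gave 166 H2O2-only, 217 UT-only and 141 common regions, and 239 UT-only and 143 common genes. The summit was then within 300 nt in 61.4% of H2O2-only and 61.8% of UT-only regions. Both KO lists then held 25.9% of H2O2-only and 18.9% of UT-only regions, both WT lists 19.4% of UT-only, and both Starve lists 15.1%, 18.0% and 72.3% of H2O2-only, UT-only and common regions. With 1 transcript per gene 172, 419 and 210 regions remained, and with 1 region per gene both KO lists held 55.5% of common regions. An overlap of 50% put 55.0% of UT-only summits within 300 nt.

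Leaving out 1 list at a time gave 382 to 5450 H2O2-only, 805 to 7533 UT-only and 455 to 689 common regions. It gave 355 to 1065 H2O2-only, 830 to 2013 UT-only and 652 to 1054 common genes. The summit shares ran from 24.3% to 65.4% and from 23.9% to 57.2% for H2O2-only and UT-only regions. For the shares called in the other lists, the settings of equal lengths and 1 region per gene were chosen after seeing the data. No paired analysis was possible because the counts come from no test, and asking that each numbered pair differ returns the same regions. Depth is unknown, so weak peaks may be missing from any list.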
